A study of Mus musculus with 6 samples.

Results

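Nfkbia, Nfkbiz, Traf1 and Tnfaip3 encode proteins that NF-kB induces and that act back on its signalling, and the mRNA of all 4 was higher in osteoclast precursors after 2 days with M-CSF and sRANKL than with M-CSF alone. Traf1 was 5.26-fold higher, Tnfaip3 2.62-fold, Nfkbiz 2.37-fold and Nfkbia 2.00-fold. The genes were taken from the authors' deposited list of changed probe sets, which names each of them with 1 probe set. They are 4 of the 522 named genes, and of the 2859 rows that remain when each named gene is represented by its brightest probe set and 2337 probe sets stay unnamed. The list was drawn up from the same comparison on the same arrays, so the differences between the groups are given as a description of these genes, with no test.

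The data are 6 Affymetrix GeneChip Mouse Gene 1.0 ST arrays from 3 independent experiments, which asked which genes respond early to RANKL during osteoclastogenesis. In each experiment, bone marrow cells of 3 wild-type mice (strain SV129/BL6, 6 to 12 weeks old as for the marrow cultures in general) were pooled, held for 48 hours in 10 ng/ml M-CSF, and divided between a dish that received sRANKL at 200 ng/ml together with M-CSF at 20 ng/ml and a dish that received the M-CSF only. RNA was taken after 2 days. The sample records call the cells monocytes, obtained as an enriched rather than pure layer of mononucleated precursors, and the sRANKL was purified from a pGEX-4T-1 construct, a bacterial expression vector. No dish received the preparation without its sRANKL, so the protein and anything else in the preparation cannot be told apart. The values are RMA intensities, that is, background-corrected array signals made comparable between arrays and summarised per probe set, on a linear scale.

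NF-kB is a family of dimeric transcription factors held in the cytoplasm by inhibitor proteins with ankyrin repeats, the IkB proteins. RANK, the receptor of RANKL, signals through TRAF adaptors to the IKK kinases, which mark IkB for destruction and free NF-kB, and mice without the NF-kB subunits encoded by Nfkb1 and Nfkb2 form no osteoclasts. Several targets of NF-kB act back on it. Nfkbia encodes IkB-alpha, which binds freed dimers and returns them to the cytoplasm. Tnfaip3 encodes A20, a ubiquitin-editing enzyme that takes apart the signalling complexes upstream of IKK. Nfkbiz encodes IkB-zeta, a nuclear ankyrin-repeat protein that joins NF-kB on DNA and is needed for part of its secondary targets, so it shapes the response rather than simply ending it. Traf1 encodes an adaptor of TNF receptor family complexes that lacks the RING domain of most other TRAFs and can raise or lower signalling depending on the receptor.

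The promoter sequences are shown because NF-kB acts on such genes through short binding motifs near the start of transcription. The RefSeq table of GRCm38.p6 holds windows for 3 of the 4 genes, each from 250 bases before to 50 bases after an annotated start. It has 1 window for Nfkbia, at chr12:55492598-55492897, and 1 for Traf1, at chr2:34961723-34962022, both on the minus strand. It has 2 for Tnfaip3, of which the upstream one is printed, at chr10:19015361-19015660 on the minus strand. Nfkbiz is not among them. Capitals mark matches on either strand to the 10-base NF-kB consensus in its common form. Each window is written 5′ to 3′ in the direction of its gene.
Nfkbia: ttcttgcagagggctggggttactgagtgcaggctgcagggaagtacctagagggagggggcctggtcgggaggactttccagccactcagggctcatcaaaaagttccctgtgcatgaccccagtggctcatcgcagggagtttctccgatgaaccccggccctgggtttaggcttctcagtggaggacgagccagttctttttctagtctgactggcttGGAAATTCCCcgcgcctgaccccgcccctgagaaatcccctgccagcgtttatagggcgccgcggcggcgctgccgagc
Tnfaip3: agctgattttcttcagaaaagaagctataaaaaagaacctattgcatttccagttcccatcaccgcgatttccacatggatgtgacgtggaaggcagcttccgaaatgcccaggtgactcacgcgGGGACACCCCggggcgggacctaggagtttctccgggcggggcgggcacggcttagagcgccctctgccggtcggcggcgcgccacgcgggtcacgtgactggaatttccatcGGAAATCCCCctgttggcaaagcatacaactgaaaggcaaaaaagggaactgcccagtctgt
Traf1: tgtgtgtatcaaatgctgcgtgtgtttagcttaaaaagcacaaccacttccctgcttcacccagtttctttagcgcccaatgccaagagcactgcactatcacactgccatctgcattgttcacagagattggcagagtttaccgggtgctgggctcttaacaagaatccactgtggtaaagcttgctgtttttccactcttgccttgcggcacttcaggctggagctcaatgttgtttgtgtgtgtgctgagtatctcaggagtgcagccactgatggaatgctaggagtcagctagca
The Nfkbia window holds 1 match, GGAAATTCCC, which lies 29 to 20 bases before the annotated start and reads as the consensus on the opposite strand. The Tnfaip3 window holds 2, GGGACACCCC from 125 to 116 bases and GGAAATCCCC from 12 to 3 bases before the start. The downstream Tnfaip3 window and the Traf1 window hold none, which says only that these letters are not in the 300 bases searched. Of all 27025 genes with a window, 5.14% hold a match, and of the 398 named genes of the array tables with a window, 9.55%. The AP-1 motif TGANTCA, which reads the same on both strands, was found in 1 window of these genes, in Tnfaip3 from 136 to 130 bases before the start, apart from the NF-kB matches, and in 8.97% of all genes. These matches are letters in a sequence, and the arrays carry no measurement of binding.

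The authors' list places Traf1 (Entrez 22029) at 34798776 to 34817292 of chromosome 2, minus strand, and the sources used here name no genome build for these coordinates. Its intensity was 419.5, 536.1 and 333.3 with sRANKL in Experiments 1, 2 and 3. With M-CSF alone it was 104.2, 76.06 and 65.11. Every sRANKL array was thus above every M-CSF alone array, and the lowest sRANKL value was 3.20 times the highest control value, the widest gap among the 4 genes. The group means were 429.6 ± 102 (SD, n = 3) and 81.8 ± 20.2 (SD, n = 3). The ratio of the partner dishes was 4.03 in Experiment 1, 7.05 in Experiment 2 and 5.12 in Experiment 3, and the log2 fold change was 2.39 ± 0.41 (SD over 3 experiments). Among the 341 named genes that were higher with sRANKL, Traf1 ranked number 44 by fold change.

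Tnfaip3 (Entrez 21929, chromosome 10, 18720716 to 18735216, minus strand) had intensities of 499.3, 574.7 and 433.7 with sRANKL in Experiments 1, 2 and 3. With M-CSF alone they were 230.0, 178.7 and 168.8. The groups did not overlap, and the lowest sRANKL value was 1.89 times the highest control value. The means were 502.6 ± 70.5 (SD, n = 3) and 192.5 ± 32.9 (SD, n = 3). Partner dishes differed 2.17-fold, 3.22-fold and 2.57-fold in Experiments 1, 2 and 3, a log2 fold change of 1.39 ± 0.28 (SD over 3 experiments). Tnfaip3 was the only one of the 4 besides Traf1 that was more than 2-fold higher in all 3 experiments.

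Nfkbiz (Entrez 80859, chromosome 16, 55811491 to 55838967, minus strand) had intensities of 367.1, 410.3 and 359.7 with sRANKL in Experiments 1, 2 and 3. With M-CSF alone they were 197.5, 171.8 and 120.5. The sRANKL arrays lay close together, the highest at 1.14 times the lowest, while the control arrays spread over 1.64-fold, the widest control spread of the 4 genes. The means were 379.0 ± 27.3 (SD, n = 3) and 163.3 ± 39.2 (SD, n = 3). The ratio of the partner dishes was therefore uneven, at 1.86, 2.39 and 2.99 in Experiments 1, 2 and 3, and the log2 fold change was 1.24 ± 0.34 (SD over 3 experiments). The groups did not overlap, with the lowest sRANKL value at 1.82 times the highest control value.

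Nfkbia (Entrez 18035, chromosome 12, 56590588 to 56593582, minus strand) had intensities of 2800, 2701 and 2236 with sRANKL in Experiments 1, 2 and 3. With M-CSF alone they were 1475, 1233 and 1157. The means were 2579 ± 301 (SD, n = 3) and 1288 ± 166 (SD, n = 3), and the lowest sRANKL value was 1.52 times the highest control value. Partner dishes differed 1.90-fold, 2.19-fold and 1.93-fold, so in Experiments 1 and 3 the difference was under 2-fold. The log2 fold change was 1.00 ± 0.11 (SD over 3 experiments), the smallest spread of the 4. Nfkbia stood at the edge of the list. With a fold change of 2.003 it was the lowest of the 371 probe sets listed as higher, the next lowest being at 2.005, and the nearest unlisted probe set below the 2-fold limit was at 1.9998. From 1.8-fold to the limit there were 226 unlisted probe sets, all without a name, and a further 100 unlisted probe sets were higher by 2-fold or more, so the list rests on more than the fold change.

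**Figure D1:**
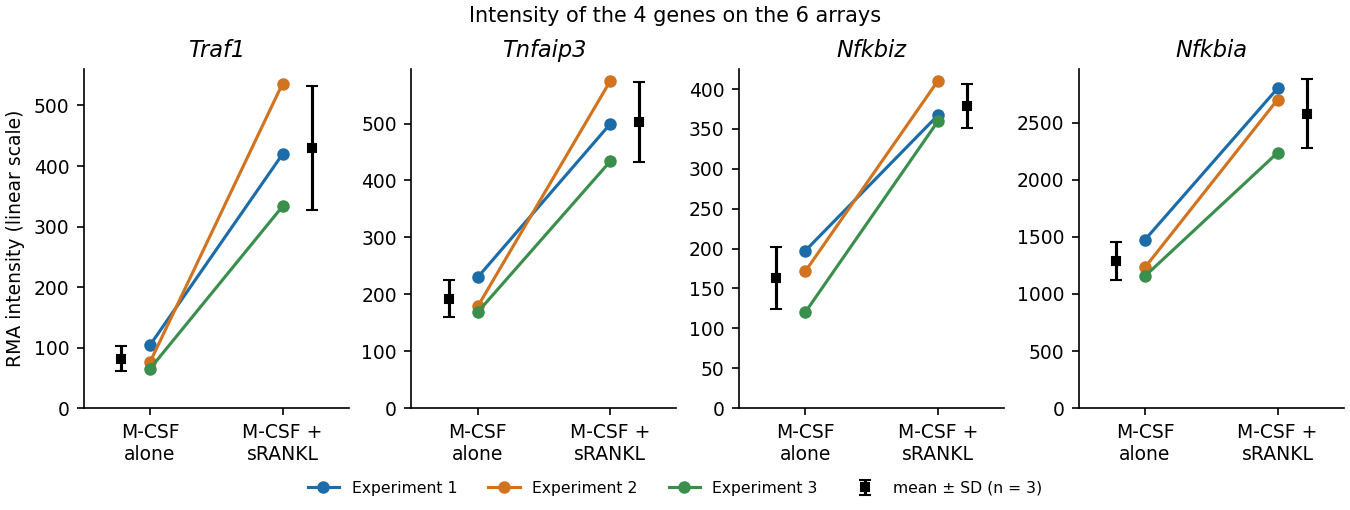
RMA intensity (linear axis from 0, with its own range for each gene) of Traf1, Tnfaip3, Nfkbiz and Nfkbia with M-CSF alone and with M-CSF and sRANKL. Lines join the partner dishes of Experiments 1, 2 and 3 and black squares give the mean ± SD of 3 arrays; all 12 lines go up, and Experiment 3 gives the lowest sRANKL value in every panel.

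All 4 genes had non-overlapping groups with sRANKL higher. This was so for 45.2% of the 2859 rows, and 44.9% of rows were higher at an adjusted p under 0.05 in limma, or 16.1% when a 2-fold difference was also required. The selection of the genes used this contrast, and nothing is read from the comparison of their count with these shares. The median fold change of the 4 genes, 2.49, was close to that of the 341 named genes that were higher, 2.62, and over all rows the median was 1.34. In bulk RNA a larger amount per cell and more cells that carry the transcript cannot be told apart.

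The order of the responses was followed across the partner dishes. The increase in Traf1 exceeded that in each of the other 3 genes in every experiment, by 1.01 ± 0.12 (SD, n = 3) on the log2 scale over Tnfaip3, 1.15 ± 0.39 over Nfkbiz and 1.39 ± 0.30 over Nfkbia. Tnfaip3 also exceeded Nfkbia in all 3 experiments, by 0.39 ± 0.18. The differences of Tnfaip3 from Nfkbiz (0.15 ± 0.33) and of Nfkbiz from Nfkbia (0.24 ± 0.34) were smaller than their spread and changed sign in 1 of 3 experiments each. The place of Traf1 at the top was thus the same in every experiment, while Nfkbiz could not be placed apart from its neighbours. Traf1 also had the lowest signal with M-CSF alone, a mean log2 intensity of 6.33. The others were at 7.32 (Nfkbiz), 7.58 (Tnfaip3) and 10.3 (Nfkbia). The part of signal level in the order was not tested. No test is given for these differences, since the genes were selected on this contrast.

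**Figure D2:**
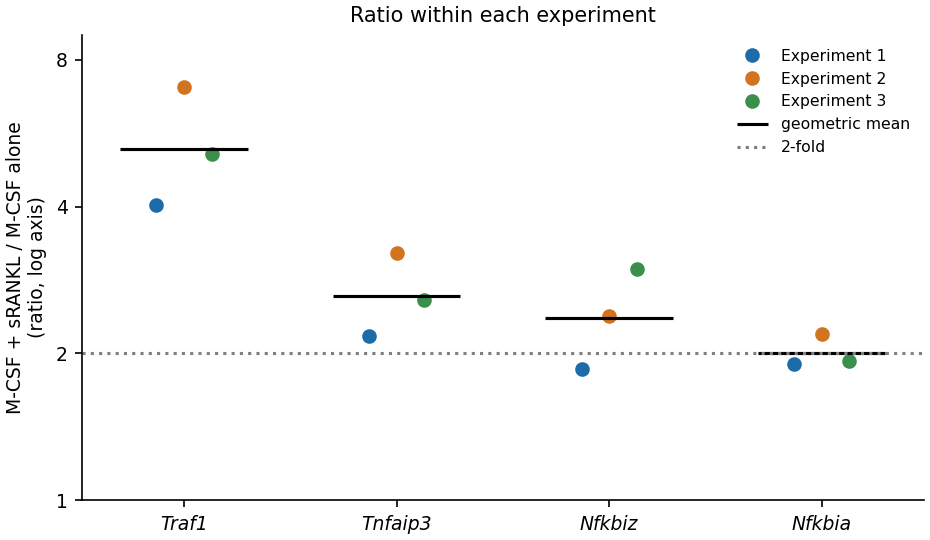
Ratio of M-CSF + sRANKL to M-CSF alone within each experiment (log axis), with the geometric mean as a bar and the 2-fold level dotted. Traf1 lies between 4.03 and 7.05, clear of the other 3 genes, and Nfkbia lies between 1.90 and 2.19, on both sides of the line.

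The 4 genes also varied alike between the experiments, a feature that the selection did not use directly. With M-CSF alone, Experiment 1 gave the highest and Experiment 3 the lowest intensity of all 4 genes, an order shown by 20.5% of the 341 named genes that were higher and by 9.37% of all rows. With sRANKL, Experiment 3 gave the lowest intensity of all 4, as for 44.6% of those named genes and 26.1% of all rows. The smallest ratio of partner dishes was in Experiment 1 for all 4, as for 36.4% of those named genes and 28.6% of all rows. The largest was in Experiment 2 for Traf1, Tnfaip3 and Nfkbia but in Experiment 3 for Nfkbiz. It was in Experiment 2 for 41.3% of those named genes and 34.7% of all rows. The 4 genes share the same 6 arrays, and a high control value lowers the ratio of its experiment, so these are not separate observations. The median log2 intensity of the M-CSF alone array of Experiment 1 over the filtered probe sets was 8.16, and those of the other 5 arrays were between 8.31 and 8.53. After each array was centred on its median, and after quantile normalization, the smallest ratio was still in Experiment 1 for all 4. With M-CSF alone, the array median fell from 8.44 in Experiment 2 to 8.31 in Experiment 3. Tnfaip3 fell less, from -0.09 to -0.18 around its group mean (log2), and so did Nfkbia, from -0.06 to -0.15. Centring thus puts Experiment 2 lowest for Tnfaip3 and Nfkbia, while Traf1 and Nfkbiz keep their order. The part of array brightness in the shared pattern was otherwise not tested. Without both arrays of Experiment 1 the fold changes were 6.01 for Traf1, 2.87 for Tnfaip3, 2.67 for Nfkbiz and 2.06 for Nfkbia.

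Genes with the most similar profile were sought among the other 521 named genes, as the smallest root mean square difference of log2 intensity over the 6 arrays after each gene was centred on its own mean. For Traf1 the nearest were Hp, which encodes haptoglobin, at 0.16, an entry listed as EG432466 at 0.18, and Ass1, argininosuccinate synthase, at 0.20. For Tnfaip3 they were Arg2, the mitochondrial arginase, at 0.09, Bst2, tetherin, at 0.10, and Il1r1, the signalling receptor of interleukin-1, at 0.11. For Nfkbiz they were Bst2 and Gstt1, a glutathione transferase, each at 0.08, and Batf, an AP-1 family transcription factor, at 0.13. For Nfkbia they were Tnfrsf10b, the mouse TRAIL receptor, at 0.08, and Gbp2, an interferon-induced GTPase, and Oaf, both at 0.09. The 4 genes were not each other's nearest neighbours. Tnfaip3 was number 11 of 521 in the order of nearness to Nfkbiz and number 62 in that to Nfkbia, and Traf1 was number 283 in that to Tnfaip3, 288 in that to Nfkbiz and 294 in that to Nfkbia. The measure counts the size of a change as well as its shape.

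The rest of the pathway was described from 8 lists of NF-kB components, regulators and targets, 143 genes in all. The tables name 34 of them, and all 34 were higher at an adjusted p under 0.05 in limma, so none was lower. The methods' t-test with adjustment gave the same count. Of all 522 named genes, 341 (65.3%) were higher. A name in these tables means that the gene was already on the authors' list as changed, so passing the test is no result about these genes. The lists were chosen with earlier results known, so their common direction is given as a description. The 109 without a name were not analysed here. Of the 11 NF-kB subunits and IkB proteins, Nfkbia and Nfkbiz are the named ones. Traf1 is the only one of 10 TRAF adaptors and cIAPs and Tnfaip3 the only one of 13 genes for A20, its partners and related ubiquitin enzymes. None of the 12 genes of the IKK complex and its upstream kinases is named. Of the other 30 named genes the median fold change was 3.35, and by fold change Traf1 ranked number 11 of the 34, Tnfaip3 number 21, Nfkbiz number 27 and Nfkbia number 34.

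Among receptors and ligands of the TNF family, 3 of 29 genes are named. Tnf, itself an inducer of NF-kB, was 3.56-fold higher, Cd40, a costimulatory receptor that signals through TRAFs, 2.28-fold, and Fas, a death receptor, 2.11-fold. Of 25 other induced inhibitors of inflammatory signalling, 6 are named, with a median of 4.23-fold. Il1rn, the interleukin-1 receptor antagonist, was 8.13-fold higher and Cd274, the checkpoint ligand PD-L1, 5.97-fold. The MAP kinase phosphatases Dusp4 and Dusp2 were 4.61-fold and 2.30-fold higher, Socs3, an inhibitor of cytokine receptors, 3.84-fold, and Irak3, an inhibitory member of the IRAK family, 2.45-fold. Il1rn varied little between experiments (log2 fold change 3.02 ± 0.05, SD over 3 experiments), and Socs3 did likewise (1.94 ± 0.05). Of the 12 survival genes, 6 are named, from Sod2, the mitochondrial superoxide dismutase, at 3.57-fold, through Plk3, Bcl2a1a, Bcl2a1d and Bcl2l1, to Ier3, an early response gene, at 2.05-fold. Bcl2a1a and Bcl2a1d belong to a family of near-identical copies and their probe sets can share signal.

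Of the 31 inflammatory genes on the lists 15 are named, with a median of 5.94-fold and a range from 2.46-fold for the chemokine Ccl3 to 24.9-fold for the chemokine Ccl7. Il1a, Il6 and Ptgs2, which encode interleukin-1 alpha, interleukin-6 and cyclooxygenase-2, were 10.1-fold, 7.90-fold and 5.94-fold higher, and Mmp9, a matrix protease, 15.8-fold. Ccl5, Ccl2, Cxcl2 and Cxcl1 were 10.2-fold, 9.06-fold, 6.99-fold and 3.41-fold higher. Clec4e, Ccl4, Cxcl10, Vcam1 and Csf1 were between 2.62-fold and 3.30-fold higher. The fold changes of Tnfaip3, Nfkbiz and Nfkbia lay at or under the low end of this range and that of Traf1 near its middle, a comparison given without a test. The experiment order seen in the 4 genes was shared in part: with sRANKL, 23 of the other 30 list genes were also lowest in Experiment 3, and with M-CSF alone, 14 of 30 were highest in Experiment 1 and lowest in Experiment 3.

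**Figure D3:**
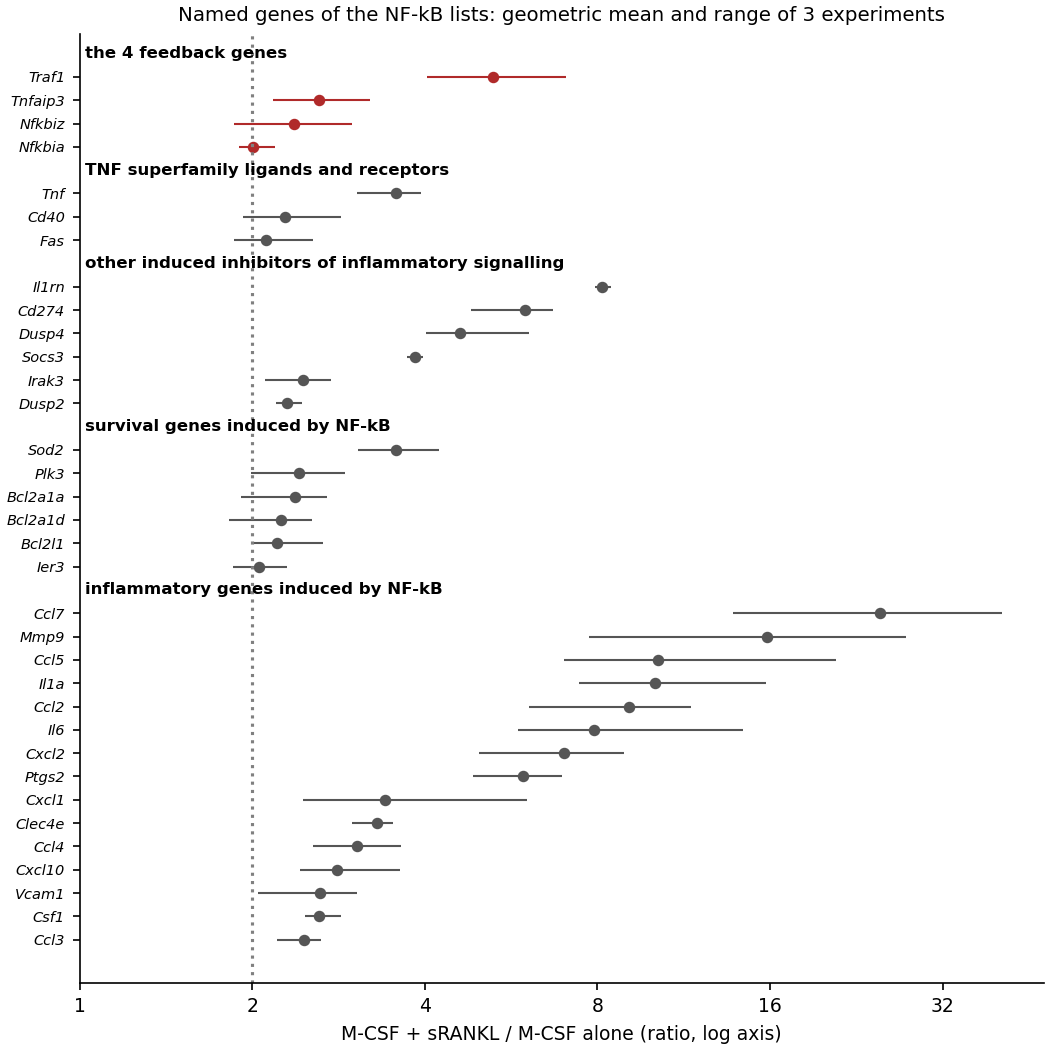
Ratio of M-CSF + sRANKL to M-CSF alone (log axis) for the 34 named genes of the NF-kB lists, grouped by list, with the 4 feedback genes in red. Points are geometric means and lines span the 3 experiments (not an error bar); the feedback genes lie between 2.00 and 5.26, and Ccl7 at 24.9 is the highest.

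Genes on marker lists for cell types moved with the treatment as well. The list for neutrophils and their precursors has 19 markers, of which 7 are named and higher with sRANKL, and their summed intensity was 6512 to 10177 with sRANKL against 1558 to 2452 with M-CSF alone. In Experiments 1, 2 and 3 that sum was 6512, 7632 and 10177 with sRANKL, highest where the 4 feedback genes were lowest. With M-CSF alone it was 2452, 1558 and 1984, highest in Experiment 1, as were the 4 feedback genes. Of 15 osteoclast markers 6 are named, all higher, with a summed intensity of 5391 to 7376 against 610.2 to 977, the highest control sum again in Experiment 1. A name means that the gene was already on the authors' list, and 65.3% of the 522 named genes were higher. The 7 genes of the neutrophil list include the related Stfa1, Stfa2, Stfa2l1 and Cstdc5, while Ly6g, S100a8, S100a9 and Elane have no name here. In Experiment 3 with sRANKL, Ctsg at 3483, Prtn3 at 2243 and Mpo at 2116 were the largest parts of the sum. Whether these genes came from neutrophil precursors or from other cells of the cultures was not tested. Of 18 monocyte and macrophage markers 3 are named, with Ccr2 and Apoe lower and Marco higher. The defining markers Csf1r, Cd68, Adgre1 and Itgam have no name here, so the labelled cell type was not checked against them. Of 11 dendritic cell markers 3 are named, with Ccr7 higher and Cd209a and H2-Eb1 lower. Ppbp of platelets and Dcn of stromal cells were higher, and the lists for B cells, T and NK cells, mast cells and erythroid cells had no named gene. The part of these cells in the levels of the feedback genes was not tested.

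The size of the Nfkbia difference depended on how the arrays were scaled. After each array was centred on its median it was 1.83-fold, and after quantile normalization of the deposited values 1.69-fold, while Traf1 (4.80-fold and 4.88-fold), Tnfaip3 (2.39-fold and 2.44-fold) and Nfkbiz (2.16-fold and 2.26-fold) were still more than 2-fold higher. Centring shifted the log2 fold change of each of the 2859 rows by the same -0.13. With quantile normalization the median shift over these rows was -0.14. Both steps rest on a table that the authors had filtered, in which most rows changed.

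**Figure D4:**
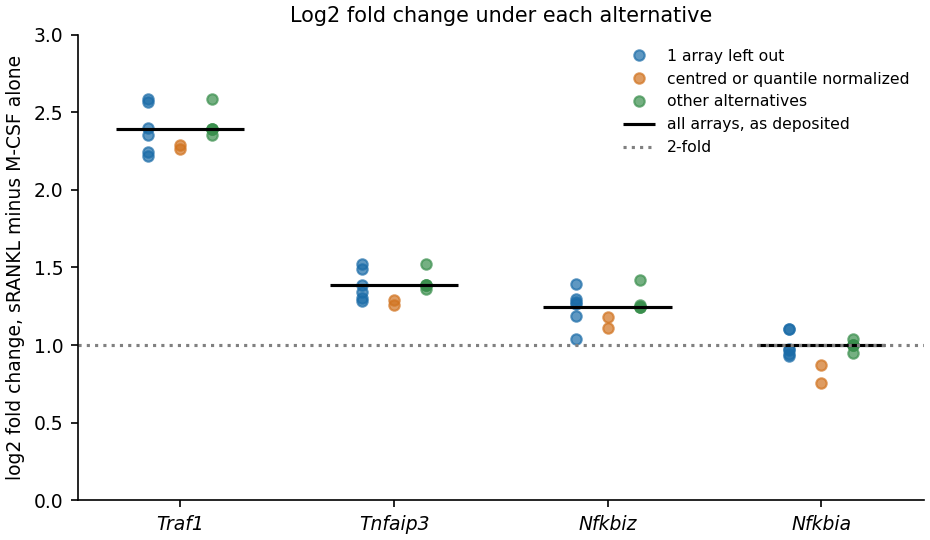
Log2 fold change (M-CSF + sRANKL minus M-CSF alone) of each gene with 1 array left out, after rescaling, and under the other alternatives, with the value from all arrays as a bar and the 2-fold level dotted. Traf1, Tnfaip3 and Nfkbiz stay above the line throughout, and Nfkbia lies below it in 7 of 13 alternatives. The replicate block, the averaging of probe sets and the floor are among the 13 and could not change the value of any of these genes.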

How the data were processed

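Array scans had been summarised by the authors with RMA in R (version 2.71 in the submitters' notes), and the deposited intensities are on a linear scale for 2890 probe sets, chosen from the array by steps not given in the sources used here. A deposited list of 656 probe sets adds names, coordinates and the authors' own comparison (means, fold changes, p-values), of which names and coordinates were used. Columns were matched to samples by description. Of 553 symbols, 62 were updated by Entrez number through RefSeq (GRCm38.p6). For 12 genes with several probe sets the brightest was kept.

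Log2 intensities were fitted with limma 3.58.1 in R 4.3.3, no block being used, and p-values were adjusted by Benjamini-Hochberg over 2859 rows (threshold 0.05). The fit was tested on simulated data. Python 3.11.15 with numpy 2.4.6, pandas 2.3.3 and matplotlib 3.10.9 did the rest. The genes, the lists and the naming rule (every named gene of the NF-kB lists, and the 3 nearest to each of the 4) were chosen with earlier results of these data known, and the motifs after the promoters were seen. Dishes of an experiment came from 1 pool, so the experiment number pairs them. Correlations of partner dishes, taken on deviations from group means, were 0.605, 0.564 and 0.645 in Experiments 1, 2 and 3. With 3 arrays per group, their number sets the precision.

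Alternatives were median centring, quantile normalization, the experiment as a block, a limma trend, the methods' t-test with adjustment, leaving out rows under a mean log2 of 7, averaging a gene's probe sets, a floor at an intensity of 64, the median of within-experiment differences, leaving out each array, and, chosen after seeing the data, leaving out both arrays of Experiment 1.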

Additional observations from a re-analysis of the deposited data

How the results depend on the processing

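All 4 genes stayed higher with sRANKL in each of their 13 alternatives, which the selection of the genes favours. Some of these alternatives could not change the fold changes of the 4 genes and so do not test them. These were the replicate block, the averaging of probe sets, since each gene has 1, and the floor, since every intensity of the 4 genes lay above it. With 1 array left out the log2 fold change was between 2.22 and 2.58 for Traf1, 1.29 and 1.52 for Tnfaip3, 1.04 and 1.40 for Nfkbiz, and 0.93 and 1.10 for Nfkbia. For Nfkbia, median centring gave 0.87 and quantile normalization 0.76, both further from 1.00 than the SD of 0.11 over the experiments. Centring shifts the log2 fold change of every gene by the same -0.13, and the SD of Nfkbia was the smallest of the 4. For quantile normalization the cause was not tested. For Traf1, Tnfaip3 and Nfkbiz no alternative moved the value by more than that gene's SD over the experiments. With the replicate block the fold changes were the same, since every experiment holds both groups. The number of changed rows was 2235 without it and 2613 with it, and 776 and 877 when a 2-fold difference was required. Over all alternatives these counts lay between 1864 and 2613 and between 682 and 999. The count of 34 higher genes of the NF-kB lists was 31 when rows under a mean log2 intensity of 7 were left out, 3 of them among these genes, and 34 in the other 13 alternatives; none was lower in any.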

Other observations

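The NF-kB consensus was also searched in the promoter windows of the other 30 named genes of the NF-kB lists, of which 22 have a window in the RefSeq table. It was found in 8 of them (36.4%), Bcl2l1, Csf1, Cxcl1, Cxcl10, Cxcl2, Ier3, Il6 and Sod2, against 9.55% of all named genes and 5.14% of all genes with a window. The AP-1 motif TGANTCA was found in 7 of the 22 (31.8%), Bcl2a1a, Bcl2a1d, Cxcl10, Fas, Il1a, Il1rn and Il6, against 11.3% of all named genes and 8.97% of all genes. Cxcl10 and Il6 hold both. The shares of all named genes and of all genes count these list genes as well, and the feedback genes that have a window. Many genes were put on these lists as known targets of NF-kB, so the share with the consensus is not independent of how the lists were made. Both motifs were chosen after promoters were seen, and Bcl2a1a and Bcl2a1d are near-identical copies. The AP-1 share is therefore also given as a description only.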
